A study of Mus musculus with 9 samples.

Results

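The NRF2 antioxidant genes described here are 10 genes, chosen by name: the transcription factor gene Nfe2l2, its inhibitor Keap1, the quinone reductase Nqo1, and the glutathione, thioredoxin and peroxiredoxin genes Gclc, Gclm, Gsr, Srxn1, Txnrd1, Prdx1 and Prdx6. All 10 were found among the 53342 genes of the count table, and all 10 were among the 12511 genes with enough counts to be tested. RNA was sequenced from bone-marrow-derived macrophages of wild-type C57BL/6J mice of both sexes, aged 8 to 12 weeks, with marrow of different animals kept apart. There were 3 groups with 3 libraries each, given Torin-2 (a compound that blocks the catalytic site of the kinase mTOR and so both of its complexes), rapamycin (which inhibits mTORC1) or vehicle. All groups, vehicle included, were also fed homogenised spinal cord for 24 h, at 10 mg of cord per mL of medium (1% w/v), starting 2 h after the compound. The cord was pooled from C57BL/6 mice aged 8 to 20 weeks, with the meninges removed. The compound doses are not known here, and no cells without homogenate were analysed, so every value below describes cultures given homogenate. Gene positions below are those of GENCODE M21 on GRCm38. Per the series design, Torin-2 lowered lipid droplet content and rapamycin did not.

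NRF2, the protein made from Nfe2l2, switches on genes that detoxify peroxides and electrophiles. In unstressed cells KEAP1 holds NRF2 at a CUL3 ubiquitin ligase, which marks it for destruction. Oxidants modify cysteines of KEAP1, NRF2 then builds up, pairs with a small Maf protein and binds antioxidant response elements, for which the repressor BACH1 competes. Because NRF2 is controlled largely through the stability of the protein, the transcript level of Nfe2l2 does not by itself measure NRF2 activity. Macrophages depend on glutathione and thioredoxin to handle the peroxides made in their own oxidative burst and in the lipid they take up.

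The antioxidant response element, which NRF2 binds, was looked for upstream of these genes. Its core, TGACNNNGC or GCNNNGTCA on the other strand, was searched in the 250 bases before each RefSeq transcription start of the GRCm38.p6 assembly. RefSeq start sites were matched for 7 of the 10 genes, with 9 windows because Txnrd1 has 3. The core lay in 4 of these 9 windows, against 10.2% of all 32851 windows of the same length. The genes were chosen by name and Txnrd1 gave 3 of the windows, and the difference in share was not tested. The 4 matches are shown, each read 5′ to 3′ along the strand of the gene, with the core in capitals and up to 20 bases on each side in lower case.
Nfe2l2, chr2:75704875-75704913, minus strand, core from base -240: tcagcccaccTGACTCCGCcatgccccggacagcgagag
Gclm, chr3:122245403-122245451, plus strand, core from base -134: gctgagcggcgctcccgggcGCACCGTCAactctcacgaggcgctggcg
Prdx1, chr4:116685446-116685494, plus strand, core from base -133: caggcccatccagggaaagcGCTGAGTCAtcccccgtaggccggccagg
Txnrd1, chr10:82859094-82859142, plus strand, core from base -92: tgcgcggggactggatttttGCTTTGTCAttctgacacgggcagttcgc
The match of Prdx1 also holds the letters TGAGTCA, which AP-1 factors bind. No match lay in these upstream windows of Srxn1, Nqo1 and Keap1 or of the other Txnrd1 starts, which says only that the letters are not there. Gclc, Prdx6 and Gsr are named without a sequence.

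The genes divided into those that were higher with both inhibitors and those that were lower with Torin-2. With Torin-2, 5 of the 10 were higher than with vehicle (Nfe2l2, Gclc, Gclm, Gsr, Srxn1) and 5 were lower (Keap1, Nqo1, Txnrd1, Prdx1, Prdx6) (edgeR's quasi-likelihood test, with the Benjamini-Hochberg adjusted p below 0.05). Of all genes tested, 32.5% were called higher and 32.9% lower in that comparison, 65.4% in all, so that being called is in itself common here. With rapamycin, the same 5 genes were higher than with vehicle (24.6% of all genes), only Prdx6 of the 10 was lower (26.2%), and 4 did not pass, where 50.8% of all genes were called. Against rapamycin, Torin-2 gave 1 higher gene, Gclc (24.2% of all genes), and 7 lower ones (24.1%), with 2 not called and 48.2% of all genes called. Groups did not overlap for 10, 6 and 8 of the 10 genes in these comparisons, against 70.2%, 57.5% and 57.2% of all genes. The median absolute log2 fold change of the 10 was 0.58, 0.46 and 0.35, against 0.52, 0.35 and 0.34 over all genes tested. The first 2 comparisons share the vehicle libraries and each shares a group with the last, so they are not separate evidence.

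**Figure D1:**
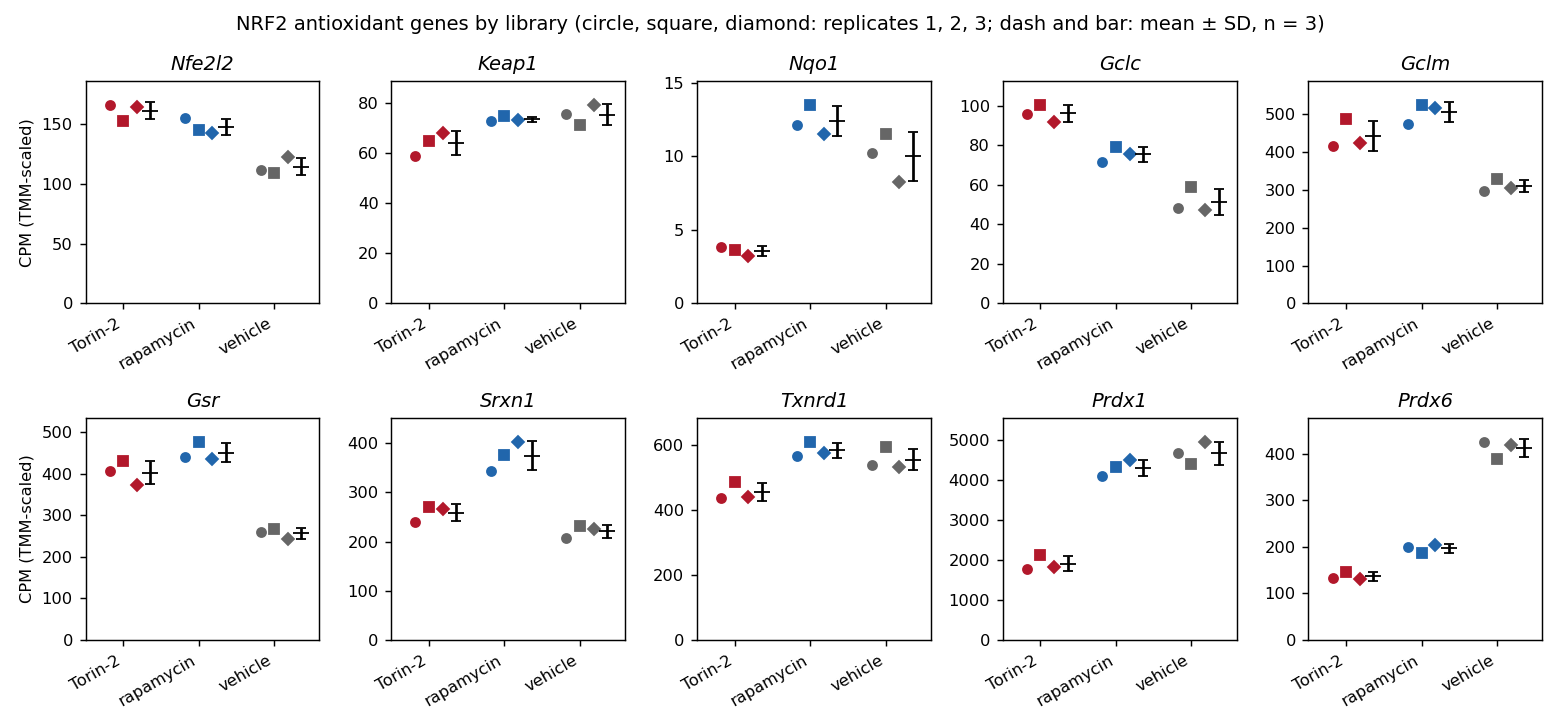
Level of each gene in every library, in counts per 1e6 (CPM) scaled by TMM on an axis from 0, with Torin-2, rapamycin and vehicle from left to right. Points are libraries, and the dash with a bar is the mean ± SD (n = 3). Nfe2l2, Gclc, Gclm, Gsr and Srxn1 are higher in both inhibitor groups than in vehicle, and Nqo1 and Prdx1 are lowest in the Torin-2 libraries, at 3.21 to 3.85 CPM and at 1778 to 2117 CPM.

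Totals ran from 16116666 to 24044329 counts per library. The cells carried macrophage markers: 7 of 7 were tested, and their summed level was 14651 to 16501 CPM with Torin-2, 19076 to 20697 with rapamycin and 11769 to 16367 with vehicle. Of 5 granulocyte markers, Ly6g, S100a9 and Mpo were at 0 in all 9 libraries, and the 5 summed to 1.4 to 2.39 CPM with Torin-2, 3.06 to 4.89 with rapamycin and 2.84 to 3.55 with vehicle. Markers of cell types of the spinal cord were present. Whether their RNA came from the homogenate was not tested, as no cells without homogenate were analysed. The 8 oligodendrocyte markers summed to 366 to 424 CPM with Torin-2, 693 to 847 with rapamycin and 481 to 614 with vehicle, and the 6 astrocyte markers to 31.3 to 33.2, 46.4 to 73.9 and 51.9 to 64.7 CPM. The 6 fibroblast markers summed to 2.38 to 7.17, 12.3 to 78.2 and 8.95 to 37.8 CPM. With Torin-2, 4 of 6 tested oligodendrocyte markers, 3 of 5 astrocyte and 3 of 3 fibroblast markers were lower than with vehicle and none was higher. With rapamycin, 3 oligodendrocyte markers were higher and 1 lower than with vehicle, 2 astrocyte markers were higher, and no fibroblast marker was called. Against rapamycin, Torin-2 had 5 of 6 oligodendrocyte, 5 of 5 astrocyte and 3 of 3 fibroblast markers lower. Of the 7 macrophage markers, 2 were higher and 2 lower with Torin-2 than with vehicle. With rapamycin, 4 were higher and 2 lower than with vehicle, and with Torin-2 against rapamycin 1 was higher and 5 lower. Of all genes tested, 32.5% were called higher and 32.9% lower for Torin-2 against vehicle. These shares were 24.6% and 26.2% for rapamycin against vehicle, and 24.2% and 24.1% for Torin-2 against rapamycin. The 6 neuron markers summed to 5.34 to 7.01 CPM with Torin-2, 9.82 to 13.3 with rapamycin and 7.75 to 11.6 with vehicle, and the 3 endothelial markers to 0.214 to 0.781, 0.451 to 1.04 and 1.41 to 1.88 CPM. The part of RNA from the homogenate in the values below was not tested. In bulk RNA, fewer cells of a type and less RNA per cell cannot be told apart.

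The factor and its inhibitor moved apart with Torin-2. Nfe2l2 (ENSMUSG00000015839, chr2:75675513-75704641, minus strand) stood at 166, 153 and 165 CPM in the Torin-2 libraries, at 156, 146 and 143 CPM with rapamycin and at 111, 109 and 123 CPM with vehicle. Every inhibitor library lay above every vehicle library, while the Torin-2 and rapamycin libraries overlapped. Its log2 fold change was 0.50 ± 0.06 (SE) for Torin-2 against vehicle, at adjusted p = 2.06e-05 (by edgeR with Benjamini-Hochberg adjustment, here and below), and 0.37 ± 0.06 for rapamycin against vehicle (adjusted p 0.000426). Between Torin-2 and rapamycin it was 0.13 ± 0.06 (adjusted p 0.116), which did not pass.

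Keap1 (ENSMUSG00000003308, chr9:21229730-21239361, minus strand), the substrate adaptor of the ligase that destroys NRF2, was lower with Torin-2. It had 59.0, 64.7 and 68.2 CPM with Torin-2, 72.8, 74.8 and 73.1 CPM with rapamycin and 75.7, 71.1 and 79.3 CPM with vehicle. The Torin-2 libraries lay below all others, and the rapamycin libraries fell within the vehicle range. The log2 fold change was -0.24 ± 0.06 against vehicle (adjusted p 0.00686) and -0.20 ± 0.07 against rapamycin (adjusted p 0.0239). For rapamycin against vehicle it was -0.04 ± 0.06 (adjusted p 0.676). The difference from rapamycin was lost with library totals as the only scaling (adjusted p 0.107), with no filter on low counts (0.0595) and without Torin-2 replicate 1 (0.111) or 2 (0.0502) or rapamycin replicate 2 (0.0659), in a range of 0.0114 to 0.111 over the alternatives. An antisense gene, Gm16754, overlaps Keap1 at 0.401 to 1.15 CPM, and the strand setting of the counts is not known.

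Counts of both genes can be set against each other within a library, which removes the scaling between libraries. There were 2.82, 2.37 and 2.42 Nfe2l2 counts per Keap1 count in the Torin-2 libraries, 2.14, 1.95 and 1.95 with rapamycin and 1.47, 1.54 and 1.55 with vehicle. No library of one group overlapped another group, in the order Torin-2, rapamycin, vehicle. The log2 ratio differed by 0.74 between Torin-2 and vehicle, by 0.41 between rapamycin and vehicle and by 0.33 between Torin-2 and rapamycin. Each difference had p = 0.1 in a 2-sided exact permutation test, the smallest that 3 libraries against 3 allow.

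**Figure D2:**
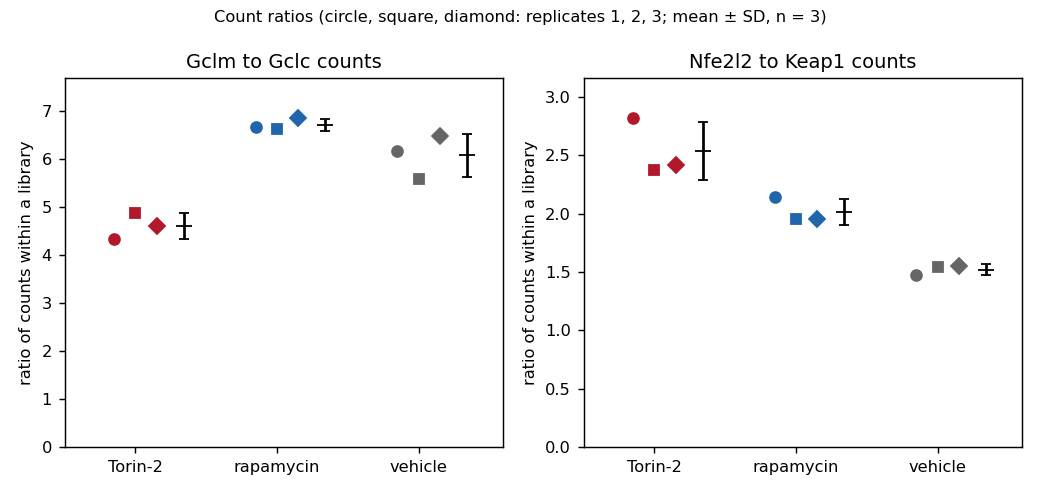
Count ratios within each library, Gclm to Gclc on the left and Nfe2l2 to Keap1 on the right, for Torin-2, rapamycin and vehicle (points: libraries; dash and bar: mean ± SD, n = 3; axes from 0). The ratio of Nfe2l2 to Keap1 averaged 2.53 with Torin-2, 2.01 with rapamycin and 1.52 with vehicle, and that of Gclm to Gclc 4.60, 6.72 and 6.07.

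Gclc, Gclm and Gsr, which make or recycle glutathione, were higher with both inhibitors than with vehicle. Gclc (ENSMUSG00000032350, chr9:77754535-77794485, plus strand), the catalytic subunit of glutamate-cysteine ligase and the rate-limiting enzyme of glutathione synthesis, had 96.0, 100.4 and 91.9 CPM with Torin-2, 71.4, 79.2 and 75.3 CPM with rapamycin and 48.3, 58.8 and 47.0 CPM with vehicle. The 3 groups did not overlap. Its log2 fold changes were 0.90 ± 0.08 for Torin-2 against vehicle (adjusted p 1.51e-06), 0.55 ± 0.08 for rapamycin against vehicle (0.000198) and 0.35 ± 0.08 for Torin-2 against rapamycin (0.00407).

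Gclm (ENSMUSG00000028124, chr3:122245557-122270732, plus strand), the modifier subunit of the same enzyme, followed another order. Its level was 416, 489 and 423 CPM with Torin-2, 476, 525 and 517 CPM with rapamycin and 298, 328 and 304 CPM with vehicle. Both inhibitor groups lay above vehicle, and Torin-2 and rapamycin overlapped. Against vehicle its log2 fold change was 0.51 ± 0.07 with Torin-2 (adjusted p 5.14e-05) and 0.71 ± 0.07 with rapamycin (1.15e-05). Against rapamycin, Torin-2 gave -0.19 ± 0.07 (adjusted p 0.0424). That last call was lost in 7 of 17 alternatives, namely library totals (adjusted p 0.198), without Torin-2 replicate 1 (0.164) or 3 (0.139), without rapamycin replicate 2 (0.123) or 3 (0.0885), without vehicle replicate 1 (0.057) and without replicate 3 of every group (0.18), in a range of 0.00513 to 0.198.

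The balance of the subunit transcripts differed between the inhibitors. Each library held 4.33, 4.87 and 4.61 Gclm counts per Gclc count with Torin-2, 6.67, 6.63 and 6.86 with rapamycin and 6.17, 5.58 and 6.48 with vehicle. The Torin-2 libraries lay below all vehicle libraries and the rapamycin libraries above them. The log2 ratio differed by -0.40 between Torin-2 and vehicle, by 0.15 between rapamycin and vehicle and by -0.55 between Torin-2 and rapamycin, each with p = 0.1, again the smallest a 2-sided exact permutation test allows here. Without vehicle replicate 2, the difference between rapamycin and vehicle was 0.09.

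Gsr (ENSMUSG00000031584, chr8:33652523-33698163, plus strand), which reduces oxidised glutathione with NADPH, stood at 405, 429 and 373 CPM with Torin-2, 439, 477 and 435 CPM with rapamycin and 260.2, 266 and 242 CPM with vehicle. Every inhibitor library was above every vehicle library, and every rapamycin library was above every Torin-2 library. Its log2 fold change was 0.65 ± 0.07 for Torin-2 against vehicle (adjusted p 3.52e-06) and 0.81 ± 0.07 for rapamycin against vehicle (2.25e-06). Between Torin-2 and rapamycin it was -0.16 ± 0.07 (adjusted p 0.0599). With the replicate number as a block this difference passed (adjusted p 0.0102), as it did with DESeq2 (0.036), with 2 groups only (0.0417) and without Torin-2 replicate 2 (0.0301), in a range of 0.0102 to 0.318.

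Srxn1 (ENSMUSG00000032802, chr2:152105516-152111376, plus strand), the sulfiredoxin that restores over-oxidised peroxiredoxins, was raised mainly by rapamycin. It had 239.6, 271 and 266 CPM with Torin-2, 344, 377 and 404 CPM with rapamycin and 207, 231 and 225 CPM with vehicle. The groups did not overlap, with rapamycin highest. Against vehicle the log2 fold change was 0.23 ± 0.07 with Torin-2 (adjusted p 0.015) and 0.76 ± 0.07 with rapamycin (7e-06). The test of the difference gave -0.53 ± 0.07 for Torin-2 against rapamycin (8.45e-05). The rise with Torin-2 was lost without Torin-2 replicate 2 (adjusted p 0.0722) or vehicle replicate 1 (0.0787), in a range of 0.000822 to 0.0787.

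**Figure D3:**
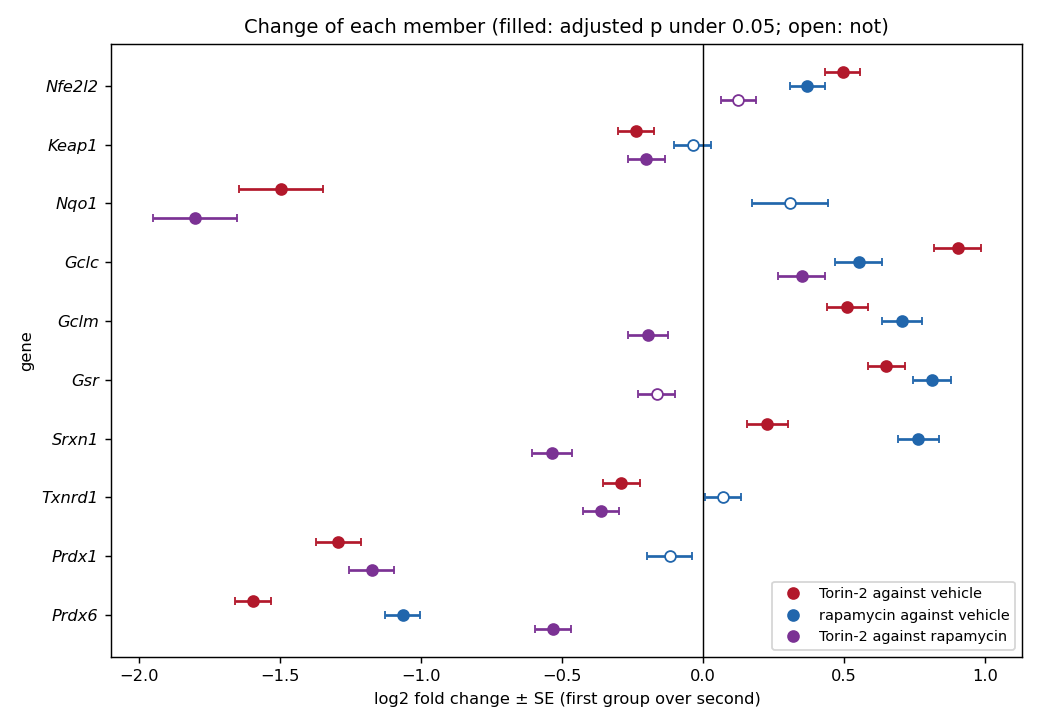
The log2 fold change ± SE of each gene, with genes down the page and a point for each of the 3 comparisons between groups. Filled points had an adjusted p under 0.05 in edgeR and open points did not. Gclc, Gclm, Gsr, Srxn1 and Nfe2l2 lie to the right of 0 for both inhibitors against vehicle, and Nqo1, Txnrd1 and Prdx1 lie left of 0 for Torin-2 against vehicle and are open for rapamycin against vehicle.

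Txnrd1 and Prdx1 were lower with Torin-2 than in both other groups. Txnrd1 (ENSMUSG00000020250, chr10:82833951-82897712, plus strand), the cytosolic thioredoxin reductase and a selenoprotein, had 437, 487 and 439 CPM with Torin-2, 565, 609.9 and 574 CPM with rapamycin and 538, 593 and 533 CPM with vehicle. All Torin-2 libraries were below all others, and rapamycin and vehicle overlapped. With Torin-2 the log2 fold change was -0.29 ± 0.06 against vehicle (adjusted p 0.00182) and -0.36 ± 0.06 against rapamycin (0.000652), and 0.07 ± 0.06 for rapamycin against vehicle (0.377). An oppositely oriented gene at its promoter, Gm38560, overlaps Txnrd1 at 1.66 to 4.23 CPM.

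Prdx1 (ENSMUSG00000028691, chr4:116685544-116700822, plus strand), the abundant cytosolic peroxiredoxin that reduces hydrogen peroxide with electrons from thioredoxin, changed more. It stood at 1778, 2117 and 1830.4 CPM with Torin-2, 4099.5, 4324 and 4503 CPM with rapamycin and 4667, 4394 and 4964 CPM with vehicle. The Torin-2 libraries were far below the rest, and the rapamycin and vehicle libraries overlapped. Log2 fold changes were -1.29 ± 0.08 for Torin-2 against vehicle (adjusted p 5.47e-08) and -1.17 ± 0.08 for Torin-2 against rapamycin (4.82e-07). For rapamycin against vehicle it was -0.12 ± 0.08 (adjusted p 0.237). With library totals as the only scaling that value was -0.21 and passed (adjusted p 0.0265, in a range of 0.0265 to 0.508 over the alternatives).

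Prdx6 (ENSMUSG00000026701, chr1:161240112-161251219, minus strand), which reduces peroxides of phospholipids and takes its electrons from glutathione, was the gene of the 10 that both inhibitors lowered. It had 132.5, 147 and 130.2 CPM with Torin-2, 200.0, 187 and 204 CPM with rapamycin and 426, 389.6 and 420.0 CPM with vehicle. The 3 groups did not overlap. Log2 fold changes were -1.59 ± 0.06 for Torin-2 against vehicle (adjusted p 2.03e-09), -1.06 ± 0.06 for rapamycin against vehicle (2.25e-07) and -0.53 ± 0.06 for Torin-2 against rapamycin (3.31e-05). The near-identical copy Prdx6b had 3 counts in the 9 libraries together and Prdx6-ps2 had 0.

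Nqo1 (ENSMUSG00000003849, chr8:107388225-107403206, minus strand), the quinone reductase often used as a readout of NRF2, had the lowest level of the 10 genes and fell with Torin-2. It had 3.85, 3.61 and 3.21 CPM with Torin-2, 12.1, 13.5 and 11.5 CPM with rapamycin and 10.2, 11.5 and 8.23 CPM with vehicle. These are 68 to 78 counts per Torin-2 library, 188 to 285 per rapamycin library and 171 to 239 per vehicle library. All Torin-2 libraries were below all others. The log2 fold change was -1.49 ± 0.15 for Torin-2 against vehicle (adjusted p 2.95e-06) and -1.80 ± 0.15 for Torin-2 against rapamycin (2.14e-06). For rapamycin against vehicle it was 0.31 ± 0.13 (adjusted p 0.0764), with every rapamycin library above the vehicle library of its number. That difference passed with the replicate number as a block (adjusted p 0.0276) and without vehicle replicate 2 (0.0293), in a range of 0.0276 to 0.254.

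Per kilobase of exon, Prdx1 was the most abundant of the 10 in each group, with 627 ± 60.0 CPM per kb with Torin-2, 1416 ± 66.4 with rapamycin and 1536 ± 93.7 with vehicle (SD, n = 3 each). Gsr came next, at 146, 163 and 93.0 CPM per kb, and Nqo1 last, at 2.29, 7.96 and 6.43 CPM per kb. In the vehicle group the levels per kb of Gsr, Prdx6, Srxn1 and Txnrd1 (78.3 to 93.0 CPM per kb) overlapped from each to the next. With Torin-2, Prdx6 stood at 28.4 CPM per kb, below Nfe2l2 at 42.5. Gclc was above Keap1 there, at 25.5 against 13.6 CPM per kb, with no overlap, whereas in vehicle their libraries overlapped (13.6 and 16.1 CPM per kb). Lengths are the summed exons of all annotated transcripts of a gene, so a gene with long rare isoforms is understated.

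Other genes of the system were read from lists that do not hold the 10. Of 14 tested partners and regulators of NRF2, 5 were higher and 3 lower with Torin-2 than with vehicle (32.5% and 32.9% of all genes). With rapamycin, 7 were higher and 2 lower than with vehicle (24.6% and 26.2% of all genes). The median log2 fold changes were -0.01 and 0.20 (all genes tested: -0.01 and 0.00). With library totals as the only scaling, the rapamycin counts were 6 higher and 4 lower. The repressor gene Bach1 had 147 ± 7.19 CPM with Torin-2, 118 ± 2.51 with rapamycin and 83.7 ± 5.67 with vehicle (SD, n = 3 each), a log2 fold change of 0.50 for rapamycin against vehicle and of 0.32 for Torin-2 against rapamycin. The small Maf gene Mafk rose by 1.09 on the log2 scale with Torin-2 against vehicle, to 34.1 ± 3.03 CPM, against 16.1 ± 0.836 CPM in vehicle. With rapamycin it rose less, by 0.39 on the log2 scale, to 21.0 ± 1.63 CPM. Dpp3, whose protein binds KEAP1, fell to 75.8 ± 2.79 CPM with Torin-2 and to 95.1 ± 5.41 with rapamycin, against 138.7 ± 5.38 in vehicle. Rbx1, the RING subunit of the CUL3 ligase, fell by 0.63 with Torin-2 and by 0.30 with rapamycin on the log2 scale. Cul3 itself went the other way, with rises of 0.33 and 0.31 against vehicle. Against rapamycin, Torin-2 gave 3 higher and 5 lower genes of this list (24.2% and 24.1% of all genes).

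Glutathione genes outside the 10 did not move as one. Of 28 tested, 6 were higher and 14 lower with Torin-2 than with vehicle (32.5% and 32.9% of all genes). With rapamycin, 7 were higher and 10 lower than with vehicle (24.6% and 26.2% of all genes). With the replicate number as a block, 11 were higher in that comparison. Against rapamycin, Torin-2 gave 2 higher and 11 lower (24.2% and 24.1% of all genes). The median log2 fold changes were -0.29, -0.17 and -0.34 (all genes tested: -0.01, 0.00 and 0.00). The cystine importer Slc7a11 rose to 294.5 ± 36.1 CPM with Torin-2, against 193 ± 19.5 with rapamycin and 134 ± 12.4 with vehicle. The glutaredoxin Glrx fell to 8.78 ± 0.598 CPM with Torin-2, against 28.1 ± 1.37 with rapamycin and 43.1 ± 1.38 with vehicle. The glutathione-degrading enzyme Chac1 had 2 to 3 counts in each Torin-2 library, against 26 to 67 with rapamycin and 30 to 53 with vehicle. Gss, the enzyme after glutamate-cysteine ligase in glutathione synthesis and chosen after its values were seen, fell to 21.8 ± 2.53 CPM with Torin-2, against 42.9 ± 3.46 with rapamycin and 54.1 ± 6.28 with vehicle.

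Thioredoxin and peroxiredoxin genes outside the 10 moved in both directions. Of 15 tested, 3 were higher and 8 lower with Torin-2 than with vehicle (32.5% and 32.9% of all genes), and 2 higher and 10 lower with rapamycin (24.6% and 26.2% of all genes). The median log2 fold changes were -0.25 and -0.37 (all genes tested: -0.01 and 0.00). Txnip, an inhibitor of thioredoxin, rose to 564 ± 28.3 CPM with Torin-2 and 386 ± 88.9 with rapamycin, against 168 ± 33.5 in vehicle. Prdx4, the peroxiredoxin of the endoplasmic reticulum, fell to 17.5 ± 1.16 CPM with Torin-2 and 38.6 ± 3.06 with rapamycin, against 60.9 ± 1.03 in vehicle. Prdx5, found in mitochondria and peroxisomes, rose to 420.3 ± 4.69 CPM with Torin-2 and to 632 ± 13.6 with rapamycin, against 369.9 ± 35.2 in vehicle. With Torin-2 against rapamycin 5 were higher and 6 lower (24.2% and 24.1% of all genes), among them the mitochondrial reductase Txnrd2, with 20.9 ± 0.528 CPM with Torin-2 and 12.2 ± 0.575 with rapamycin. Against vehicle, at 16.4 ± 1.10 CPM, Txnrd2 rose with Torin-2 by 0.35 on the log2 scale and fell by 0.42 with rapamycin.

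Of 15 other genes described as NRF2 targets, 4 were higher and 6 lower with Torin-2 than with vehicle (32.5% and 32.9% of all genes). With rapamycin, 4 were higher and 3 lower than with vehicle (24.6% and 26.2% of all genes), and 5 were lower with library totals as the only scaling. Against rapamycin, Torin-2 gave 3 higher and 7 lower (24.2% and 24.1% of all genes). Osgin1, an oxidative stress gene, rose to 55.1 ± 7.04 CPM with Torin-2, against 9.45 ± 0.581 with rapamycin and 5.76 ± 2.53 with vehicle. The haem oxygenase Hmox1 had log2 fold changes of -1.92 ± 0.14 for Torin-2 against vehicle and -0.47 ± 0.14 for rapamycin against vehicle. Blvrb, a biliverdin reductase, rose with rapamycin to 373 ± 4.44 CPM, against 241 ± 23.6 in vehicle. With Torin-2 it rose less, to 276.2 ± 8.2 CPM.

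**Figure D4:**
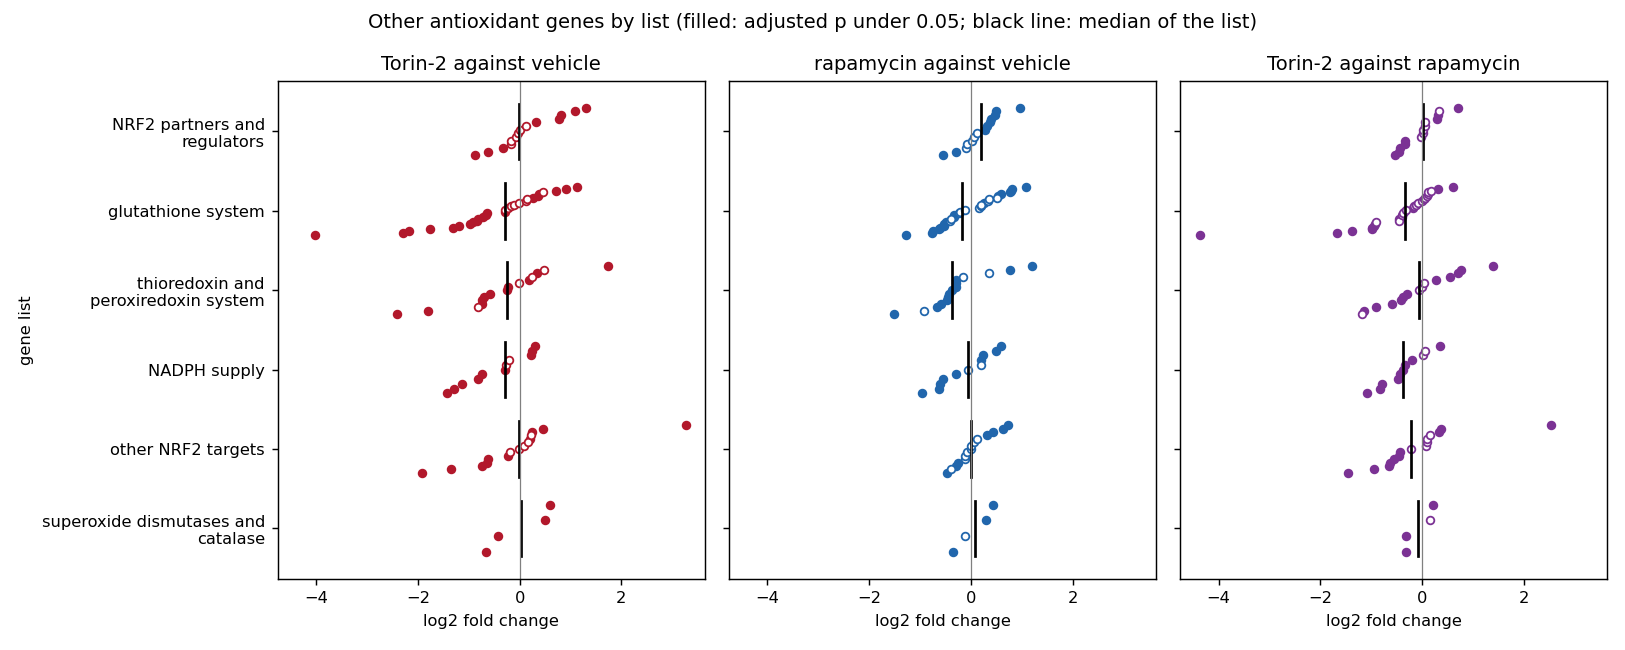
The log2 fold changes of the tested genes of 6 lists that exclude the 10 genes, 1 panel for each comparison, with a point per gene (filled: adjusted p under 0.05 in edgeR) and a black line at the median of the list. Each list has genes on both sides of 0 in each comparison, and the median of the glutathione list is -0.29 for Torin-2 against vehicle.

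The genes whose levels over the 9 libraries were most like those of Nfe2l2, among 8393 compared, were Ndrg3 (Pearson r of log2 CPM 0.990), Tns3 (0.988) and Foxk1 (0.987). Those most like Nqo1 were Cox6c (0.995), Nrros (0.989) and Srsf9 (0.989). The libraries form 3 groups, so these values describe chiefly the order of the groups. For example, Foxk1 stood at 45.8 to 54.4 CPM with Torin-2, 36.5 to 43.4 with rapamycin and 13.7 to 16.1 with vehicle, and Cox6c at 57.7 to 62.6, 85.7 to 94.2 and 79.2 to 87.2 CPM.

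The scaling between libraries touches the comparisons with rapamycin. With library totals in place of TMM, the higher share of the calls over all genes for rapamycin against vehicle was 37.4% in place of 48.5%, and the median log2 fold change of all genes was -0.09 in place of 0.00. The calls of Nfe2l2, Gclc, Gclm, Gsr, Srxn1 and Prdx6 in that comparison kept their direction and passed under all 17 alternatives.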

How the data were processed

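The authors deposited raw gene counts in 1 table with 9 library columns, made with bcl2fastq, FastQC and STAR 2.5.2a on mm10 and GRCm38.p6, per the submitters' processing notes. The counting tool, strand setting and annotation release are not known here. Libraries were read as paired ends of 100 bp, per the labels.

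The counts were fitted with edgeR 4.0.16 under R 4.3.3: filterByExpr by group (12511 genes, at least 99.92% of the counts of each library), TMM scaling (factors 0.955 to 1.05) and 1 quasi-likelihood fit of 3 groups, tested 2-sided with Benjamini-Hochberg adjustment over all genes at 0.05. The common biological coefficient of variation was 9.96%, and low-count genes are measured least well. Standard errors are the log2 fold change divided by the root of F. The fitting code was tested on simulated data. The 17 alternatives included DESeq2 1.42.0, other scalings and filters, a replicate block and leaving out each library.

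The main fit and the permutation tests did not pair libraries, and the replicate number entered only as a block in an alternative. Deviations from the group means correlated at 0.161 to 0.489 for the 9 same-numbered pairs and at -0.349 to 0.16 for the other 18. Numbers 1 and 2 were hardly told apart. For example, Torin-2 replicate 2 correlated at 0.161 with vehicle replicate 2 and at 0.158 with vehicle replicate 1. Whether a number marks 1 animal is not stated, so the p-values measure the spread between these libraries.

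Of 53342 identifiers, 53237 were found in GENCODE M21 (GRCm38), which gave exon lengths and overlaps. Of the 51 named genes that are members or were taken from the lists, 10 overlap another tested gene, among them Txnip, Slc48a1, Sod1, G6pdx, Txnrd2 and Prdx5, whose values are uncertain to that extent. The members and lists were chosen with earlier results of these data known. Cul3 and Gss were named after their values were seen, outside the rule that follows. The text names all members, up to 2 rises and 2 falls per list and comparison among called genes of at least 1 CPM, and the 3 genes most like Nfe2l2 and Nqo1 among those of at least 5 CPM. The result of 1 marker list is not reported here.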

Additional observations from a re-analysis of the deposited data

How the results depend on the processing

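Of 30 results (10 genes in 3 comparisons), 21 kept their direction and their side of the threshold under all 17 alternatives, and 9 did not. With library totals only, 2 genes in place of 1 were lower with rapamycin than with vehicle (Prdx6 and Prdx1), and 2 in place of 1 were higher with Torin-2 than with rapamycin (Gclc, and Nfe2l2 at an adjusted p of 0.0146 by edgeR, in a range of 0.0146 to 0.313). Values that turned sign were never called: with library totals Txnrd1 was at -0.0252 for rapamycin against vehicle, and Keap1, in the same comparison, ran from -0.0753 to 0.0017 when single libraries were left out (above 0 without vehicle replicate 3) and was at 0.0059 without replicate 3 of every group. With the replicate number as a block, 6 genes in place of 5 were higher and 1 was lower with rapamycin than with vehicle, 8 in place of 7 were lower with Torin-2 than with rapamycin, and all 10 calls for Torin-2 against vehicle stood, 5 in each direction. Leaving out single libraries, the genes higher with Torin-2 than with vehicle numbered 4 to 5, those higher with rapamycin than with vehicle 5 to 6 and those lower with Torin-2 than with rapamycin 5 to 7. The paired difference of the count ratios equals the unpaired one, and no ratio turned sign. Of 612 values for the counts in the lists, 24 moved by over 1.5 times. Depth limits Nqo1, Chac1 and other genes of few counts most.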

Other observations

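Enzymes that supply NADPH, which glutathione reductase and thioredoxin reductase consume, were split. Of 11 tested, 3 were higher and 6 lower with Torin-2 than with vehicle (32.5% and 32.9% of all genes). With rapamycin, 4 were higher and 5 lower than with vehicle (24.6% and 26.2% of all genes). With Torin-2 against rapamycin, 1 was higher and 8 lower (24.2% and 24.1% of all genes). That higher count was 0 under 10 of 17 alternatives, and the lower count was 5 without rapamycin replicate 2 and with library totals only. G6pdx, the first enzyme of the pentose phosphate pathway, fell to 77.6 ± 5.08 CPM with Torin-2 and 138 ± 6.58 with rapamycin, against 209.5 ± 11.6 in vehicle (SD, n = 3 each). Pgd, a later enzyme of that pathway that also makes NADPH, rose with rapamycin to 919.5 ± 38.3 CPM, against 610.0 ± 12.7 in vehicle. With Torin-2 it rose less, to 709.0 ± 32.8 CPM. Mthfd1, a folate enzyme, fell to 19.3 ± 1.09 CPM with Torin-2 and 24.3 ± 2.82 with rapamycin, against 47.3 ± 3.99 in vehicle.

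Among superoxide dismutases and catalase, 4 genes were tested. With Torin-2, catalase (Cat) rose to 1130.2 ± 107 CPM and the cytosolic dismutase Sod1 to 395 ± 22.2 CPM, against 742 ± 34.8 and 278 ± 5.30 CPM in vehicle. Both also rose with rapamycin, Cat to 1007.9 ± 65.9 CPM and Sod1 to 340.4 ± 28.3 CPM. Between Torin-2 and rapamycin, Sod1 passed (adjusted p 0.0191 by edgeR) and Cat did not (0.0949). The mitochondrial dismutase Sod2 fell to 49.7 ± 3.04 CPM with Torin-2 and 62.1 ± 2.62 with rapamycin, against 78.9 ± 4.32 CPM in vehicle. Ccs fell to 14.5 ± 1.52 CPM with Torin-2, against 19.5 ± 1.68 CPM in vehicle, and was not called for rapamycin against vehicle.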
